A study of Mus musculus with 4 samples.

Results

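The Emerald-negative fraction of MC1-ZE7 mouse embryonic stem cells was described here from its own pair of DNA methylation libraries, 2 of the 4 libraries in the series. MC1-ZE7 is a reporter line of the MC1 (129S6/SvEvTac) strain in which the Zscan4c promoter drives the fluorescent protein Emerald. Cells at passage 31, grown without feeders in serum and leukaemia inhibitory factor, were sorted by fluorescence, and those without Emerald signal make up the fraction. The labels name no genotype change or treatment beyond the reporter, and with DNA alone measured, the cell type could not be checked against expression markers. One part of their genomic DNA was cut with HpaII and another with MspI, and each digest gave 1 HELP tagging library. A single line, 1 fraction and 1 library per enzyme leave no replicate, so no test was possible, and intervals below are 95% intervals that cover counting error only.

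Most CG dinucleotides in mammalian genomes carry a methyl group, while CpG islands, stretches dense in CG that often lie at gene starts, are usually free of it. Zscan4 genes are known from the early embryo and switch on only now and then in cultured embryonic stem cells. HpaII cuts CCGG only where the central CG is unmethylated, MspI cuts it in both states, and HELP tagging counts a short genomic tag beside each cut. A higher HpaII tag number relative to MspI is the assay's sign of lower methylation.

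The libraries held 9535691 HpaII and 9307616 MspI tags over the same 1594137 CCGG sites on 21 chromosomes of build mm9. HpaII tags were seen at 53.7% of sites and MspI tags at 69.5%. Both enzymes gave tags at 49.9% of sites, MspI alone at 19.6%, HpaII alone at 3.77%, and neither at 26.7%. After division by the library totals, the log2 ratio of HpaII to MspI tags is called the HpaII/MspI ratio below. It is relative to the library average, so 0 marks a site or class cut as often as that average and not a given methylation percentage. Site scores, 100 × (2/π) × arctan of the linear ratio, run from 0 (no HpaII tag) through 50 (equal scaled tags), and were read at the 318791 sites with at least 10 MspI tags. A few positions held very many tags: the 0.1% of sites with the most took 6.51% of HpaII and 10.4% of MspI tags, and 1 site on chromosome 2 alone held 320490.5 MspI tags. Values without the sites among the top 0.1% of either library (2829 sites) are therefore given beside those over all sites and are called trimmed.

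Promoters show the range of states in this fraction at the level of sequence. The 250 bases upstream of 4 gene starts are printed 5′ to 3′ with every CCGG in capitals, from RefSeq on GRCm38.p6. A1cf, Lcat and Lep were chosen from the low end of the promoter scores and Dnmt3b from the methylation enzymes, all after their values were seen. Each promoter was found on the mm9 site map by the spacing of its own CCGG positions, so no coordinate was converted.
A1cf, chr19:31868563-31868812, plus strand: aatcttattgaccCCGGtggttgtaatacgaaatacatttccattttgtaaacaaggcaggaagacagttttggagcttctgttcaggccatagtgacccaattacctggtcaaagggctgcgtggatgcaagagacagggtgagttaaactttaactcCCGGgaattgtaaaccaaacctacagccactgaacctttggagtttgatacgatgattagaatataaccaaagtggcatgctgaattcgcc
Lcat, chr8:105943403-105943652, minus strand: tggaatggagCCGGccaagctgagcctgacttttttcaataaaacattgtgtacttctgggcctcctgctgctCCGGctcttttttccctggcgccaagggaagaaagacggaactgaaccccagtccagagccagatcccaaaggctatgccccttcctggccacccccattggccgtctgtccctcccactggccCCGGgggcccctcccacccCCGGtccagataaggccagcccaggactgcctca
Lep, chr6:29059971-29060220, plus strand: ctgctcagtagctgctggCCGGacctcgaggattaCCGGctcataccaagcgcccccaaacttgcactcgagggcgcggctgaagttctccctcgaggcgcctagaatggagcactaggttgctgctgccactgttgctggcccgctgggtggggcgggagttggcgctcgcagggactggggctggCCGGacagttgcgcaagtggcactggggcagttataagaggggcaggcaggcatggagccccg
Dnmt3b, chr2:153649199-153649448, plus strand: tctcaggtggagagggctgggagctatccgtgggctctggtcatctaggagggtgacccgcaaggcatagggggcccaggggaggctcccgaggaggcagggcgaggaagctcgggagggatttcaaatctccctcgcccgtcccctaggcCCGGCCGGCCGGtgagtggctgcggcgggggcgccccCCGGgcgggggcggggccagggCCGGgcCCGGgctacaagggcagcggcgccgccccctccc
The stretches end at the start site, so 1 CCGG of the A1cf window, 2 of Lep and 1 of Dnmt3b, which lie within 50 bases after it, are counted below but not printed. CCGG, the only motif searched and its own reverse complement, occurred at least once in 52.8% of the 32851 RefSeq promoter windows of 300 bases and at least 3 times in 21.1%.

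The A1cf stretch, upstream of an RNA-binding cofactor of apolipoprotein B mRNA editing in liver and intestine, was 43.2% G and C with 6 CG dinucleotides. The 3 CCGG sites of the A1cf window, from 5′ to 3′, gave 0, 1 and 0 HpaII tags against 9, 13 and 16 MspI tags. Nearly no HpaII cutting was thus seen at any A1cf site although MspI cut all of them. Lcat encodes the enzyme that esterifies cholesterol on high-density lipoprotein, and its upstream stretch was 60.8% G and C. The 4 sites of the Lcat window gave 8, 0, 0 and 0 HpaII tags against 16, 12, 2 and 5 MspI tags, so all of its HpaII tags came from the site farthest upstream. Lep, the gene of the fat-cell hormone leptin, had 65.6% G and C and 16 CG dinucleotides. Its 5 sites gave 1, 11, 3, 3 and 1 HpaII tags against 0, 4, 11, 6 and 5 MspI tags, so 1 site held most HpaII tags. Dnmt3b, a de novo DNA methyltransferase expressed in embryonic stem cells, had 75.2% G and C, 21 CG dinucleotides and 3 CCGG that follow each other without a gap. The 7 Dnmt3b sites gave 8, 0, 3, 3, 0, 9 and 12 HpaII tags against 2, 0, 1, 2, 0, 1 and 0 MspI tags. HpaII tags exceeded MspI tags at every Dnmt3b site where either enzyme gave a tag.

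Local CCGG density separated strongly cut from weakly cut sites. Density counted every CCGG up to 500 bp away plus the site itself, in the classes isolated (1), 2 to 4, 5 to 9 and dense (10 or more, a spacing typical of CpG islands). The 598929 isolated sites averaged 3.33 HpaII and 6.33 MspI tags per site, and the 130174 dense sites 13.3 HpaII and 2.35 MspI tags. The HpaII/MspI ratio was −0.96 (interval −0.967 to −0.962) at isolated sites, −0.42 at sites with 2 to 4, 1.70 at sites with 5 to 9 and 2.47 (2.464 to 2.475) at dense sites. On a linear scale isolated sites were cut 0.513 times and dense sites 5.54 times the library average, so the isolated value was 9.26% of the dense value, or 9.81% when trimmed. Dense sites were 8.17% of all sites and held 18.2% of HpaII but 3.29% of MspI tags. Isolated sites were 37.6% of all sites and held 20.9% of HpaII and 40.7% of MspI tags. The order of the classes held on each of the 19 autosomes, where trimmed ratios ran from −1.04 to −0.74 at isolated sites, from −0.48 to −0.10 at 2 to 4, from 1.54 to 1.76 at 5 to 9 and from 2.29 to 2.56 at dense sites, with no overlap between classes. Autosomes of 1 pair of libraries are not replicates. Both parts of the deposited tag count gave nearly the same values, −0.94 and −0.99 at isolated sites and 2.46 and 2.48 at dense sites.

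The median score of covered sites passed from low to high between 3 and 7 CCGG. With 1, 2 and 3 CCGG in the window this median was 12.3, 11.2 and 12.3. The pooled HpaII/MspI ratio of all sites already rose over these steps, from −0.96 through −0.84 to −0.11. Trimmed, it was −0.87, −0.64 and −0.19. The median score was 17.3 with 4, 33.7 with 5, 69.9 with 6 and 79.0 with 7. The share of covered sites scoring under 20 was 52.5% with 4 CCGG, 40.3% with 5, 27.8% with 6 and 16.7% with 7. Their share over 80 went from 10.6% to 20.4%, 34.1% and 47.8%. Pooled tags passed the library average between 3 and 4 CCGG, at 0.924 and 1.34 times the average. Between 10 and 16 CCGG the level changed little, from 5.14 times the average with 10 to 5.97 times with 16. At 22 CCGG the ratio was 2.20 over all sites and 2.44 when trimmed, and 41.3% of the 63 covered sites there scored under 20. It was lower at the highest densities, which hold few sites: 1.58 with 34 CCGG (83 sites), −0.39 with 39 (38 sites) and 0.35 with 40 or more (166 sites). Only 2, 4 and 3 of those sites were covered, and all of these scored under 20.

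**Figure D1:**
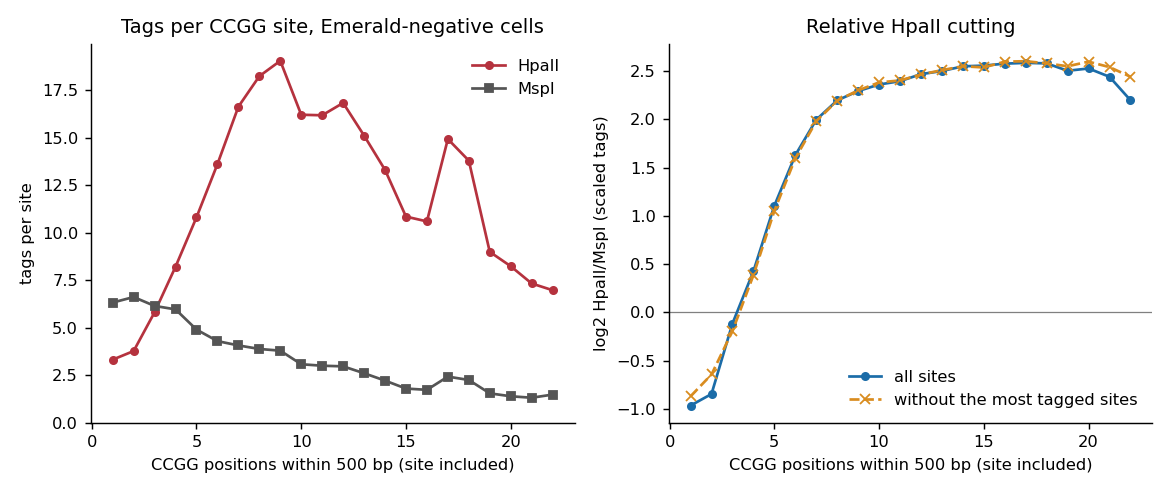
Tags per site of both libraries (left) and the log2 HpaII/MspI ratio (right) by the number of CCGG within 500 bp, shown up to 22. HpaII tags per site peak at 9 CCGG while MspI tags fall with density. The ratio climbs steeply between 2 and 7 CCGG and then levels off near 2.5 within the range shown, with and without the most tagged sites. The lower ratios at the highest densities lie outside this range.

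Single-site scores were mostly low, and the density classes divided them. Over all covered sites the median score was 13.6 (quartiles 4.43 and 38.4), 58.9% scored under 20, 34.0% from 20 to 80 and 7.01% over 80. No HpaII tag was seen at 18.0% of covered sites. Among covered isolated sites 63.5% scored under 20 (interval 63.2 to 63.7) and 1.94% over 80 (1.86 to 2.01). Among covered dense sites 6.27% scored under 20 (5.66 to 6.91) and 66.9% over 80 (65.7 to 68.1), with a median of 83.3. Sites with 5 to 9 CCGG were spread over the whole scale, 28.3% under 20, 37.1% between and 34.6% over 80. Scaling the libraries to their dense sites instead of their totals put 87.5% of covered sites under 20, so these shares depend on the scaling. Coverage reached 4.57% of dense and 22.5% of isolated sites, and the covered dense sites are those with unusually many MspI tags. The ratio moved with that depth in every class up to 49 tags: at isolated sites it was −0.12 with 1 to 4 MspI tags and −1.38 with 20 to 49, and at dense sites 2.81 and 1.51. MspI tags are the denominator of the ratio, so picking sites by them also picks on the ratio, and class levels were taken from pooled tags.

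**Figure D2:**
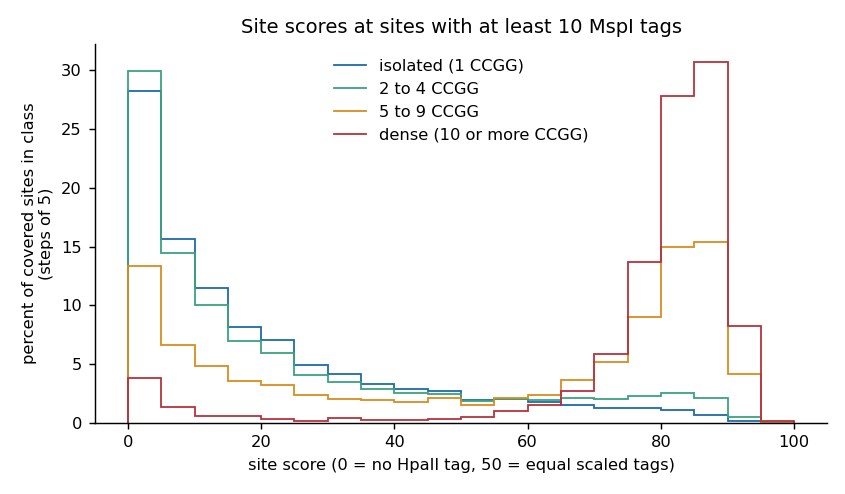
Share of covered sites (at least 10 MspI tags) in steps of 5 on the site score, by density class. Isolated sites and sites with 2 to 4 CCGG pile up at low scores, dense sites between 75 and 90, and sites with 5 to 9 CCGG show both peaks.

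Distance to the nearest other CCGG went with the tag yield and, in a class-dependent way, with the ratio. Dense sites whose nearest CCGG lay 4 to 15 bp away averaged 0.937 MspI and 5.41 HpaII tags, and those whose nearest lay 201 to 500 bp away 5.81 MspI and 24.8 HpaII tags. The ratio of these groups was 2.49 and 2.06. At sites with 2 to 4 CCGG over the same distances the ratio went from 0.30 to −0.71, or from 0.21 to −0.42 when trimmed, while HpaII tags per site were 3.31 and 4.60 and MspI tags 2.63 and 7.34. Isolated sites with the nearest CCGG at 0.5 to 1 kb had a ratio of −0.62 and those at 2 to 5 kb −1.08, with nearly equal HpaII tags per site (3.29 and 3.36) and 4.94 and 6.94 MspI tags. HpaII and MspI yields thus rose together in the dense class, while at isolated sites MspI yield alone was higher at the longer distance.

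Isolated sites near a dense cluster were cut far more often than those remote from one. A dense cluster was a run of dense sites with gaps of at most 500 bp, and distance was taken to its nearest edge. At 0.5 to 1 kb, 1743 isolated sites held 24006.4 HpaII and 9210.1 MspI tags, a ratio of 1.35 (1.31 to 1.38) and a median score of 66.3. The ratio was 0.40 at 1 to 2 kb, −0.32 at 2 to 5 kb, −0.55 at 5 to 10 kb, −0.65 at 10 to 20 kb and −0.79 at 20 to 50 kb. It was −0.94 at 50 to 100 kb and −1.03 at 100 to 200 kb, so most of the fall lay within 5 kb and a slow decline went on beyond 100 kb. Past 200 kb the value was −1.39 over all sites and −1.004 when trimmed, so the last step of the decline rests on the most tagged sites. The ratio of isolated sites within 2 kb exceeded that beyond 50 kb by 1.87, or by 1.70 when trimmed. On single autosomes the ratio at 0.5 to 1 kb ran from 0.98 to 1.90 and that at 100 to 200 kb from −1.21 to −0.90.

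The same gradient appeared within the density class of 2 to 4 CCGG. There the ratio was 2.00 within 0.5 kb of a cluster, 1.71 at 0.5 to 1 kb, 0.92 at 1 to 2 kb and 0.29 at 2 to 5 kb. It then fell to 0.03 at 5 to 10 kb, −0.26 at 20 to 50 kb and −0.54 at 100 to 200 kb. Beyond 200 kb it was −1.35 over all sites and −0.81 when trimmed. Sites with 5 to 9 CCGG started at 2.28 within 0.5 kb, close to the dense level, and were still at 1.48 at 20 to 50 kb and 1.28 past 200 kb. Their median score nevertheless fell from 82.8 within 0.5 kb to 51.5 at 20 to 50 kb and 24.2 past 200 kb. Density class and distance thus both went with the ratio. Density was held exactly only at isolated sites. Within the class of 2 to 4 CCGG the ratio over all distances ran from −0.84 with 2 to 0.43 with 4. Within 5 to 9 it ran from 1.11 with 5 to 2.29 with 9. Whether the number of CCGG within a class shifted toward cluster edges was not tested.

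**Figure D3:**
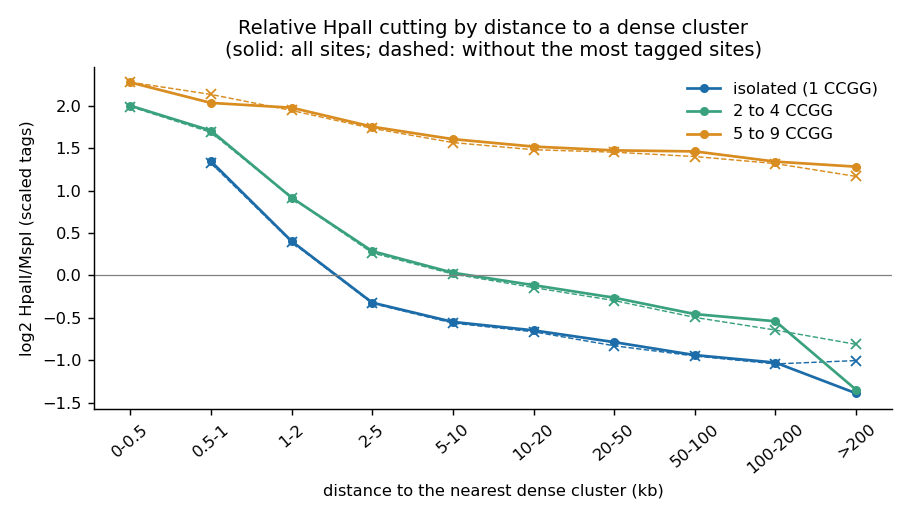
Log2 HpaII/MspI ratio by distance to the nearest dense cluster for isolated sites, sites with 2 to 4 CCGG and sites with 5 to 9 CCGG, over all sites (solid) and trimmed (dashed). The ratio falls with distance up to 200 kb in all 3 classes, steepest below 5 kb, and past 200 kb the solid and dashed lines part at isolated sites and sites with 2 to 4 CCGG.

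Within clusters of at least 5 sites the ratio was nearly flat. It was 2.34 at the outermost sites, 2.48 at 1 to 100 bp from the edge, 2.50 at 101 to 250 bp and 2.59 at 251 to 500 bp. The 892 sites more than 1000 bp inside, which only the longest clusters have, were lower at 2.01.

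Neighbouring sites shared their state over short distances. The comparison used successive covered sites with whole tags only, and each correlation is across site pairs of the same 2 libraries and is a description. Spearman's correlation of the scores was 0.735 over 900 pairs 4 to 30 bp apart and 0.731 over 12829 pairs 31 to 100 bp apart. It fell to 0.622 at 201 to 500 bp, 0.479 at 0.5 to 1 kb, 0.255 at 1 to 2 kb and 0.154 at 2 to 5 kb. MspI tags of the same pairs correlated at 0.161 in the closest step and at most 0.065 in the others. The minimum of 10 MspI tags cuts their range, so these values cannot show whether tag yield was shared less than the score. After a site scoring over 80, the next scored over 80 in 70.5% of pairs 31 to 100 bp apart, in 50.5% at 0.5 to 1 kb, 27.8% at 1 to 2 kb and 5.90% past 20 kb. It scored under 20 in 0.585% of pairs at 31 to 100 bp, 8.57% at 0.5 to 1 kb, 28.0% at 1 to 2 kb, 43.3% at 2 to 5 kb, 49.9% at 5 to 10 kb and 57.4% past 20 kb. The share of switches from strongly to weakly cut thus went on rising with distance from 31 to 100 bp onward. At 4 to 30 bp it was 0.8% of 125 pairs. After a site under 20 the next was also under 20 in 79.6% of pairs at 31 to 100 bp and in 62.7% past 20 kb, near the 58.9% of all covered sites.

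**Figure D4:**
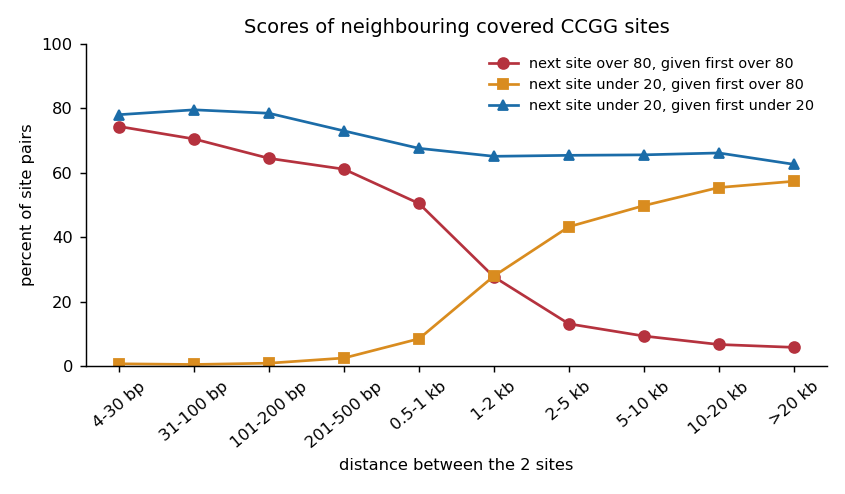
Score of the next covered site, given the score of the first, by the distance between them, in percent of pairs. High scores persist up to about 1 kb and the red and orange lines cross at 1 to 2 kb (27.8% and 28.0%), while low scores are followed by low scores at every distance.

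Dense clusters were almost all strongly cut. The 130174 dense sites formed 9856 clusters, 8437 of them with at least 5 sites. Of the 5305 with at least 5 sites and 20 MspI tags, 5161 (97.3%, interval 96.8 to 97.7) scored over 80, 88 (1.66%) from 20 to 80 and 56 (1.06%, 0.798 to 1.37) under 20. The median cluster score was 89.1 (quartiles 87.5 and 90.5). The share under 20 was 1.69% with a minimum of 50 MspI tags and 1.89% when scaled to dense sites. By size, 761 of the 801 clusters with 5 to 9 sites, 97.6% with 10 to 19, 98.6% with 20 to 39 and 87.5% of the 56 with 40 or more scored over 80. Low scores went with fractions of tags, read here as tags divided between positions: 39 of the 56 clusters under 20 held sites with such fractions, 36 of the 88 between, and 326 of the 5161 over 80. How the fractions arose is not given. They were taken to be tags that match several places and so have an uncertain origin, and their part in the low scores was not tested. No tag of either library fell in 1545 clusters (18.3%) of at least 5 sites, whose state was not measured.

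The 5 clusters with the most sites show these cases. The largest, chr11:82743641-82746885 with 109 dense sites, held 901.9 HpaII and 155.9 MspI tags and scored 88.8, with divided tags at 30 sites. It lies between the promoters of Nle1 and Mmp28, in a stretch that also holds the Slfn gene family. The cluster at chr12:5061570-5066490, between Ubxn2a and 2810032G03Rik, had 104 sites, 62.8 HpaII and 2979 MspI tags and a score of 1.31, with divided tags at 59 sites. Those at chr8:53389058-53394033 (105 sites) and chr10:27538691-27545191 (73 sites) had no tag in either library, and the 103 sites at chr3:93085216-93096567 had 4 MspI tags only. Having many sites did not mean being measured, and 1 of these 5 clusters gave a high score, with divided tags among its sites.

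All 5 lowest clusters with at least 10 sites and 50 MspI tags held divided tags, 9 sites at the least. The lowest, chr17:5241035-5241728, had 0 HpaII and 58.5 MspI tags, and a count of 0 allows up to 3 tags. A second cluster beside the one already named on chromosome 12, chr12:5057129-5058814, held 17.7 HpaII and 705.7 MspI tags and scored 1.55. Among clusters with whole tags only, a list added after the values were seen, the lowest were chr18:83453800-83454313 (4 HpaII and 94 MspI tags, score 2.64), chr13:3290556-3291043 (6 and 63 tags, 5.90) and chr3:16866973-16867467 (10 and 58 tags, 10.6). The fifth of that list, chr11:53632554-53633012 between Irf1 and Slc22a5, already scored 33.2 with 73 HpaII and 124 MspI tags. Of all 56 clusters under 20 with at least 5 sites and 20 MspI tags, 17 held whole tags only, and these spanned 111 to 1539 bp with a median of 488 bp. The 4835 such clusters over 80 had a median span of 702 bp.

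Some long stretches held runs of successive covered sites that all scored over 50 or all lacked HpaII tags. CCGG sites with fewer than 10 MspI tags were skipped, so a run does not show the state of the whole stretch. There were 35384 runs of sites all scoring over 50, of which 1677 had at least 5 sites and 195 at least 10. The longest, 60 sites over chr17:39941784-39985698, held 172043 HpaII and 34800.5 MspI tags, and 8 of its sites had divided tags. Over all sites the median was 1 HpaII and 3 MspI tags, so tags were piled up in this longest run. Runs were not computed without the most tagged sites. The next run, 30 sites over chr11:96130796-96168112, held 1900 HpaII and 461.7 MspI tags, and its lowest site scored 52.0. It lies between the placed promoters of Gm30134, 65.6 kb to its left, and Hoxb3os, 46.6 kb to its right. RefSeq orders Hoxb9, Hoxb8, Hoxb7, Hoxb6 and Hoxb5, homeobox genes that pattern the body axis, between these 2 promoters. The third run, 24 sites over chr12:88219511-88259063 with 1330 HpaII and 317 MspI tags, contains the promoter of Irf2bpl, a transcriptional co-regulator, and none of its sites had divided tags. Runs of covered sites with no HpaII tag, a stricter limit than a score under 50, held fewer sites. Of 43757 such runs 196 had at least 5 sites, and the longest had 9 sites over chr4:11104865-11146985 with 125.5 MspI tags. The next 2, of 8 sites each, were chr1:153876411-153896688 (109 MspI tags), between Edem3 and 1700025G04Rik, and chr1:181212195-181274128 (97 MspI tags), between Kif26b and Tfb2m. The last spanned 61934 bp, more than any of the 3 runs over 50 named above, with a median of 8621 bp between its successive sites.

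Gene promoters with several CCGG were strongly cut in nearly all cases. Of 6935 RefSeq promoter windows (250 bases before to 50 after the start) with at least 3 CCGG, 6574 matched exactly 1 place on the site map, 337 more than 1 and 24 none. The shift between builds was within 1000 bp of that of neighbouring promoters in 99.9% of cases. For each of the 5916 genes placed, tags were summed within 500 bp of the start with the most CCGG, and 4961 genes had at least 20 MspI tags. Their median score was 88.8 (quartiles 87.0 and 90.3), with 4832 (97.4%) over 80, 103 (2.08%) from 20 to 80 and 26 (0.524%, interval 0.343 to 0.767) under 20. All 26 low promoters had fewer than 10 CCGG within 500 bp: 14 of 116 genes with 3 or 4 (12.1%) and 12 of 1630 with 5 to 9 scored under 20. Of 2951 genes with 10 to 19 CCGG, 2941 scored over 80, and so did 264 of 264 genes with 20 or more. Promoters with fewer than 3 CCGG could not be placed, so the sparse promoters where low scores would be sought first are mostly not covered.

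The lowest promoters were ranked among 3383 genes with at least 30 MspI tags and no divided tags, of which 18 (0.532%) scored under 20. Gene models with a Gm or Rik symbol made up 9 of these 18, against 12.7% of the ranked genes, and the lowest of them was Gm33861 with 1 and 33 tags (score 1.88). The other 9 are named here with their known roles, and no theme was tested among them. A1cf was lowest, with 1 HpaII and 40 MspI tags within 500 bp of its start (score 1.55). Slc41a3, of a magnesium transporter family, had 2 and 74 tags (1.68), and Slc25a47, a mitochondrial carrier of liver, 1 and 31 (2.00). Muc20, a mucin, had 7 and 77 tags (5.63). Tnp1, which replaces histones in maturing sperm, and the oppositely oriented 1700027A15Rik share the same sites, with 5 and 32 tags (9.64). Lcat scored 12.3 (14 and 70 tags), Cdsn, a protein of the outer epidermis, 14.0 (8 and 35), and Srgn, a granule proteoglycan of blood cells, 16.1 (9 and 34). Dao, D-amino acid oxidase, had 10 and 31 tags (19.4). All 18 had 3 to 7 CCGG within 500 bp, below the dense class.

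Promoters scoring from 20 to 80 came next in that order, and the examples given were picked after their values were seen. Such scores are relative to the library average and do not mark a half-methylated state. The log2 HpaII/MspI ratios of F7 (−1.33), Apoc2 (−1.20), Il12a (−0.88) and Lep (−0.87) were near or below the trimmed −0.87 of isolated sites. Those of Klb (−0.15) and Acta1 (−0.06) were far below the 2.47 of dense sites. F7, coagulation factor VII made in liver, had 22 and 54 tags (24.1), and Apoc2, a cofactor of lipoprotein lipase, 21 and 47 (26.2). Il12a, a cytokine subunit, had 24 and 43 tags (31.8), Lep 19 and 34 (31.8) and Epor, the erythropoietin receptor, 24 and 37 (35.9). Klb, a co-receptor for fibroblast growth factors, had 72 and 78 tags (46.7), and Acta1, skeletal muscle actin, 61 and 62 (48.7). HpaII and MspI tags were thus about equal at Klb and Acta1. At the other end Ripor1 had 384 and 30 tags (94.9), Aspscr1 408 and 32 (94.9) and Kansl3, of a histone acetyltransferase complex, 334 and 32 (93.8). The lowest and the highest promoter, A1cf and Ripor1, thus held 1 and 384 HpaII tags at 40 and 30 MspI tags.

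Lists of genes by role, chosen with earlier results of these data known, were read against all placed promoters with at least 20 MspI tags. Of those promoters 97.4% scored over 80. Of 60 germline genes, many of which are kept off by promoter methylation outside germ cells, only 4 could be read, and 2 of them scored over 80. Sycp1, of the meiotic synaptonemal complex, had 32 HpaII and 25 MspI tags (score 57.0), and Hormad1, a meiotic chromosome axis protein, 111 and 56 (69.6). Mael, of the piRNA pathway, had 86 and 27 (80.2) and Tdrd5, of the same pathway, 259 and 38 (90.5). The median of these 4 was 74.9, below the 88.8 of all placed promoters with at least 20 MspI tags. With 4 readable genes the list says little about the other 56.

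The remaining lists had counts near that share, from which nothing particular to a list is read, and promoters with fewer than 3 CCGG had no value. Of 20 methylation genes 8 could be read and 8 scored over 80. Dnmt1, the maintenance methyltransferase, had 210 and 48 tags (85.4), Uhrf1, which brings it to newly copied DNA, 155 and 27 (88.8), and the de novo enzymes Dnmt3a 299 and 51 (89.0) and Dnmt3b 172 and 22 (91.7). The oxidising enzymes Tet3 and Tet2 stood at 91.1 and 92.5, the histone demethylase Kdm1b at 89.3 and the chromatin remodeller Hells at 90.2. Tet2 had divided tags at 4 sites. Of 38 pluripotency genes 5 could be read, all over 80: Zfx (86.2), Klf2 (89.1), Jarid2 (90.7), Etv5 (91.5) and Sall1 (93.5). Of 70 genes of embryonic development, most of them largely inactive in embryonic stem cells, 13 could be read and 13 scored over 80, from Tbx1 (85.0) through Pax6 (91.9) to Lhx2 (92.3). Their median was 89.4. Of 40 housekeeping genes 9 could be read, with a median of 88.4, from Tuba1b (82.0) to Rps6 (90.2). Expression was not measured in these libraries.

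Imprinted genes carry methylation on 1 parental copy at control regions, which need not be the promoter measured. Of 45, 9 could be read and 9 scored over 80, with a median of 88.8. Igf2r, the receptor that clears insulin-like growth factor, was lowest with 111 and 31 tags (82.3), then Zrsr1 with 235 and 58 (84.2) and Copg2 with 182 and 38 (86.6). Grb10 stood at 88.8, Gnas at 90.2 and Mkrn3 at 91.5 with 251 and 33 tags.

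Chromosomes differed little once sites were compared within a density class. Trimmed ratios at isolated sites ran from −1.04 on chromosome 13 to −0.74 on chromosome 11, a mean of −0.87 ± 0.08 (SD over 19 autosomes). Over all sites chromosome 2 stood apart at −1.91, and 1 site within chr2:98000001-99000000 held 99.8% of the MspI tags at isolated sites of that megabase. Without the most tagged sites chromosome 2 was at −0.88. Chromosomes with a larger share of dense sites had higher isolated ratios, a Spearman correlation over 19 autosomes of 0.612 when trimmed and 0.474 over all sites. The extremes were chromosome 11, with 9.56% dense sites, and chromosome 13, with 7.19%. Autosomes share libraries and depth, so this is a description.

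Chromosome X had more HpaII cutting than any autosome at isolated sites and less at sites with 5 to 9 CCGG. Its trimmed isolated ratio was −0.70 against at most −0.74 on the autosomes, and over all sites it was −0.59, above the mean of the autosomes by 0.32. That difference was 0.18 when trimmed. At 5 to 9 CCGG the X ratio was 1.41 against 1.54 to 1.76, and at dense sites 2.31, between the 2.29 of chromosome 12 and the 2.46 of chromosome 8, the next autosome. Tags divided between positions touched 5.31% of X sites. Of 44 X-linked promoters 7 (15.9%) scored 80 or less, against 122 of 4917 autosomal ones (2.48%), with medians of 85.2 and 88.8. The minimum of 20 MspI tags kept 31.9% of 138 placed X promoters but 85.1% of 5778 autosomal ones, so on X it selected promoters with many MspI tags, the denominator of the ratio. Pooled over all placed promoters with no minimum, the ratio was 2.29 (2.23 to 2.35) on X and 2.49 (2.48 to 2.50) on the autosomes, against 2.06 and 2.47 in the promoters kept. Chromosome Y had 484 isolated sites and 54 dense sites, with 14.9% of sites holding divided tags, and its isolated ratio was 0.71, or 0.47 when trimmed.

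Tag yield differed by chromosome in both libraries. The median number of MspI tags per isolated site in 1 Mb bins, trimmed, was 7.98 on chromosome 8 and between 5.04 and 6.21 on the other 18 autosomes, 1.38 times their median. HpaII tags were 4.10 on chromosome 8, 1.34 times the median of the others, so both libraries were high there. The isolated ratio of chromosome 8, −0.91 when trimmed, lay within the autosomal range. Chromosome X had 2.73 MspI tags per isolated site, 0.473 times the autosomal median, and chromosome Y 2.87, or 0.498 times. HpaII tags on X were 0.559 times the autosomal median. What sets these yields was not tested.

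**Figure D5:**
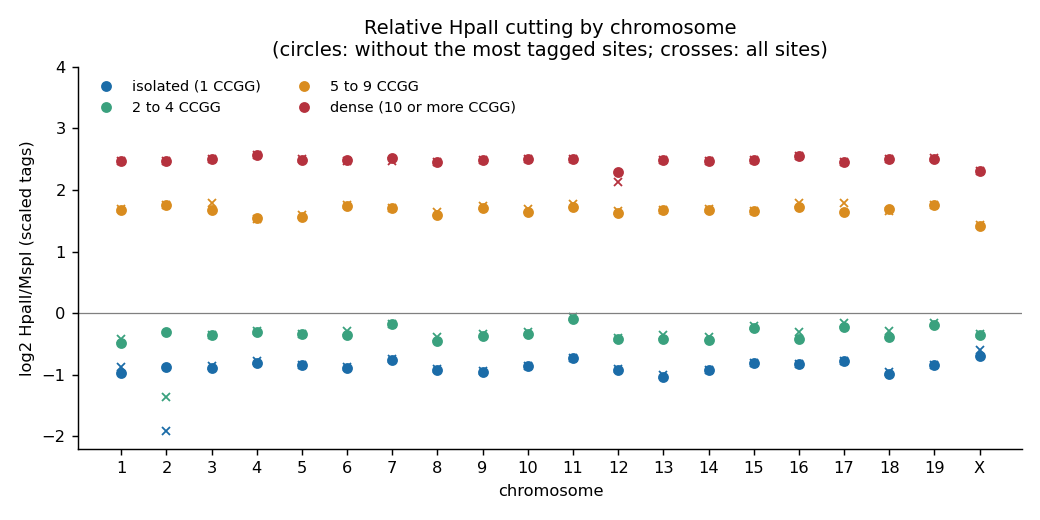
Log2 HpaII/MspI ratio of each autosome and X by density class, trimmed (circles) and over all sites (crosses). The 4 classes stay apart on every chromosome shown, chromosome 2 drops at isolated sites and at 2 to 4 CCGG only with the most tagged sites included, and X lies below all autosomes at 5 to 9 CCGG.

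The outer 2 Mb of the autosomes did not stand apart from the rest at isolated sites beyond the spread between autosomes. Pooled, the distal 2 Mb of the autosomes had a ratio of −0.74 against −0.98 in the rest, a difference of 0.25 (0.229 to 0.269), or 0.13 when trimmed. The distal ends exceeded the rest on 11 of 19 autosomes, over all sites and trimmed, and the mean difference over autosomes was 0.14 ± 0.51 (SD), or 0.09 ± 0.42 when trimmed. The outermost 0.1 Mb of the distal ends stood at −0.15 with 381 sites and the next 0.4 Mb at −0.56. Distal sites at 0.5 to 1 Mb stood at −0.82 and the interior at −1.02. Trimmed, these 4 values were −0.13, −0.60, −0.85 and −0.86. The spread between autosomes was not computed for these narrower steps, so the statement on ends covers the 2 Mb only. Proximal ends, next to the centromere in mouse, differed from the rest by 0.26 when pooled, or 0.09 when trimmed. They exceeded it on 11 of 19 autosomes with a mean of 0.09 ± 0.44, and when trimmed on 10 of 19 with a mean of 0.01 ± 0.36. Pooled dense sites showed no such step, with 2.50 at proximal ends, 2.48 at distal ends and 2.47 in the rest. Over autosomes their mean difference from the rest was −0.24 ± 0.49 at proximal and −0.09 ± 0.33 at distal ends. Pooled sites with 2 to 4 CCGG differed from the rest by 0.44 at proximal and 0.36 at distal ends, or 0.15 and 0.26 when trimmed. Their means over autosomes, not trimmed, were 0.01 ± 0.69 and 0.10 ± 0.47.

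Megabases with few and with many CCGG had similar isolated ratios when trimmed. Bins of 1 Mb were put in 4 groups by their CCGG number. Over all sites the ratio from the poorest group (22 to 410 CCGG) to the richest (762 to 2104) was −1.31, −0.97, −1.07 and −0.69. Trimmed it was −0.69, −1.04, −1.08 and −0.70, so the poorest and the richest bins were alike and the order of the poorest against the richest rested on the most tagged sites. The gradient toward dense clusters was weakest in poor bins. There, trimmed ratios were −0.27 within 2 kb of a cluster and −0.68 beyond 50 kb, a smaller step than the 0.43 and −1.08, 0.64 and −1.20, and 0.81 and −0.97 of the 3 richer groups. The −0.27 rests on 403 isolated sites (interval −0.381 to −0.154), against 930, 1650 and 3638 sites before trimming in the richer groups. Dense sites of the poor bins averaged 0.501 MspI tags per site, against 1.88, 2.21 and 3.04, so clusters there were measured less.

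Single megabases varied more than counting allows. Over 2549 bins with at least 50 isolated sites and 300 MspI tags at them, the median isolated ratio was −0.90, with the 5% quantile at −1.62 and the 95% quantile at −0.08. The SD was 0.47, against 0.07 from counting alone, and 96.6% of bins were below 0. Adjacent bins were alike, with a Spearman correlation of 0.349 over 2509 pairs when trimmed. The highest bin over all sites, chr1:24000001-25000000 (1.70), which holds the promoters of Fam135a and Lmbrd1, took 92.8% of its HpaII tags from 1 site. In chrX:73000001-74000000 (1.45) 1 site held 89.4% and in chr4:78000001-79000000 (0.85) 76.0%. The remaining one of the 4 highest, chrY:2000001-3000000, stood at 1.02 and had divided tags at 42 of its 112 isolated sites. When trimmed the highest were that bin (0.89), chr18:37000001-38000000 (0.68), chr4:67000001-68000000 (0.51) and chr17:39000001-40000000 (0.50).

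Low megabases rested less on single sites. After chr2:98000001-99000000 (−4.73), described above, the lowest were chrX:114000001-115000000 (−2.26), chr12:108000001-109000000 (−2.17) and chr4:103000001-104000000 (−2.07), and they were also the lowest when trimmed. The chromosome 12 bin lies between the Atg2b and Bcl11b promoters and held 720 CCGG with no dense site, 303 isolated sites, 363 HpaII and 1598 MspI tags, and none of its isolated sites had divided tags. The chromosome 4 bin, which ends 40 kb before a placed promoter of Dab1, a signalling adaptor in neuronal migration, held 308 HpaII and 1263 MspI tags at 223 isolated sites. In these 3 bins no single isolated site held more than 17.6% of the HpaII tags.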

How the data were processed

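HELP tagging measured DNA methylation at CCGG sites in sorted Emerald-negative MC1-ZE7 cells, with 1 HpaII and 1 MspI library. The deposited files hold estimated counts of tags per site in 2 parts and their sum, and the first line gives the total. Fractions of a tag occur at 1.67% of sites in the HpaII file and 1.93% in the MspI file. The build is mm9, per the submitters' processing notes. The aligner, the counting of tags with several matches and the meaning of the 2 parts are each not given in the sources used here. The tags carry no molecular identifiers, so intervals and the limit of 3 tags for a count of 0 cover counting error only.

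The sum was scaled to the total of each library (9535691 HpaII and 9307616 MspI tags). Pooled log2 ratios have exact intervals from HpaII tags given HpaII plus MspI tags, rounded to whole tags, shares have exact Clopper-Pearson intervals, and differences of ratios have normal intervals from Poisson counts. Dense clusters, bins and promoters were scored from summed tags. Scripts ran in Python 3.11.15 with scipy 1.17.1, pandas 2.3.3, numpy 2.4.6 and matplotlib 3.10.9, and the density, cluster, distance, ratio and promoter placing steps were tested on simulated data. No test across sites was run, since each enzyme has 1 library.

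Named regions were the 4 highest and 4 lowest megabases, the 5 largest and 5 lowest clusters and the 3 longest runs of each kind. The rule called for gene names only with an annotation of mm9. Naming through RefSeq promoters of GRCm38.p6, matched by CCGG spacing with exact distances and no extra site, was added later, as were the trimming by both libraries, the clusters without divided tags, the ranked promoters and the printed ones. The measures and gene lists were chosen with earlier results of these data known. Alternatives covered whole tags only, the most tagged sites, either part of the count, minima, windows, bin and end sizes and scaling to dense sites. The Emerald-high libraries were not used here.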

Additional observations from a re-analysis of the deposited data

How the results depend on the processing

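Over 7 summary values and 52 alternatives, 4 alternatives moved the value by less than its counting interval, 45 moved it by more and 3 changed its sign. Those 3 left a small value, between 0.0015 and 0.014. The difference in ratio between dense and isolated sites, 3.43, became 3.37 with whole tags only, 3.34 without the sites with most MspI tags, 3.35 without those with most tags in either library, 3.40 and 3.47 with part 1 and part 2 of the tag count, 3.31 at sites with at least 10 MspI tags, and 3.33 and 3.48 with windows of 250 and 1000 bp. The near minus far difference of isolated sites, 1.87, became under the same choices 1.74, 1.71, 1.70, 1.84 and 1.89, then 2.14 and 1.22 with the windows of 250 and 1000 bp and 1.82 with 15 CCGG as the dense limit. The 1000 bp window changed it most, and that window redefines which sites are isolated.

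The difference between CCGG-poor and CCGG-rich megabases, -0.62, nearly vanished in 3 settings. It was 0.0039 (-0.0038 to 0.0116) with whole tags only and 0.0015 (-0.0060 to 0.0091) without the sites with most MspI tags. Both intervals hold either sign. Without the sites with most tags in either library it was 0.014 (0.0063 to 0.0215). Removing the 1594 sites with most MspI tags was enough for the difference to nearly vanish. It was -0.53 and -0.71 with the 2 parts, -0.77 at sites with at least 10 MspI tags and -0.67 with 500 kb bins. The distal end difference, 0.25, became 0.125, 0.132 and 0.129 in the first 3 of these settings, 0.198 and 0.299 with the parts, 0.291 at covered sites, 0.501 in the outermost 500 kb and 0.218 in the outermost 5 Mb. The X difference, 0.32, became 0.161, 0.167 and 0.177 with whole tags only and in both removals, 0.363 and 0.278 with the parts and 0.480 at covered sites.

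The share of covered sites scoring under 20, 58.9%, was 59.2% with whole tags and 64.1% and 63.2% with the parts. It was 53.2% and 63.8% with minima of 5 and 20 MspI tags and 87.5% when scaled to dense sites. The share of clusters under 20, 1.06%, was 0.790% with whole tags, 1.53% and 1.42% with the parts, 1.69% with at least 50 MspI tags and 1.89% when scaled to dense sites. The cause of these moves was not tested, except where the setting itself drops the sites concerned. Depth limits dense sites most, since 4.57% of them reached 10 MspI tags. No paired analysis was possible because each enzyme has 1 library and the labels give no replicate numbers.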

Other observations

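Values along the length of the autosomes add little to the pattern by density. With each autosome divided into 10 equal segments from the centromere outward, trimmed ratios at isolated sites lay between -0.97 in segment 3 and -0.75 in segment 8. At dense sites segment 1 stood lowest at 2.29 when trimmed, and the other 9 lay between 2.47 and 2.52. Within the proximal part of the autosomes, dense sites 2 to 5 Mb from the first mapped site had a ratio of 1.55, or 1.80 when trimmed, against 2.52 at 5 to 10 Mb. This step holds the weakly cut clusters named on chromosomes 12 and 2, at chr12:5061570-5066490, chr12:5057129-5058814 and chr2:6416243-6417073, and the value without them was not computed. Isolated sites more than 10 kb from any other CCGG, 1721 in all, had a ratio of -0.65, against -1.08 at those 2 to 5 kb from the nearest.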
